A study of Homo sapiens with 4 samples.

Results

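The 10 genes described here encode steps that bring glucose into the cell and turn it into lactate: SLC2A1, HK1, HK2, GPI, PFKP, ALDOA, ALDOC, PGK1, ENO2 and LDHA. They were chosen by name, as glycolytic enzymes and the glucose carrier SLC2A1, and every probe set of the array annotated to 1 of these symbols alone was taken. That gave 21 of the 54675 probe sets, and all 21 passed the filter on low signal described at the end. The 10 genes stand among 12264 expressed genes. All 4 samples were T84 cells, an established human line from a colorectal carcinoma whose cells polarise on porous transwell filters, transfected with short RNAs. Affymetrix U133 Plus 2.0 arrays read their messenger RNA. The first culture received 4 miRNAs, miR-33a, miR-210, miR-338-3p and miR-451, and was collected on day 5 (the 4-miRNA array). The next received only miR-451 and miR-338-3p and was collected on day 5 (the 2-miRNA array). The remaining cultures received a negative-control short RNA and were collected on day 7 or on day 5 (the control arrays). Each culture received 15 pmol of oligonucleotides; the labels do not say whether that was the total of a mix. Every group had 1 array and came from 1 cell line, so variation between cultures was not measured and nothing below carries a p-value.

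Glycolysis splits glucose into pyruvate and makes ATP without oxygen, and LDHA then reduces pyruvate to lactate, which keeps the pathway supplied with NAD+. SLC2A1 carries glucose across the membrane, the hexokinases HK1 and HK2 trap it as glucose-6-phosphate, and GPI, PFKP and the aldolases ALDOA and ALDOC carry it to the triose stage, where PGK1 and the enolase ENO2 act before LDHA. Several of these genes (SLC2A1, HK2, ALDOA, ALDOC, PGK1, ENO2 and LDHA among them) are textbook targets of the hypoxia-inducible factor HIF, a transcription factor that accumulates when oxygen is low. Colon epithelium lives at low oxygen, and carcinoma lines such as T84 lean on glycolysis. miRNAs bind messenger RNAs mainly through the seed, bases 2 to 8 of the mature strand, and lower their level or translation; miR-210 is itself known as a HIF-induced miRNA.

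The mature sequences of miR-338-3p, miR-210 and miR-33a, from RefSeq, are shown because their seeds are part of what the mixes added; miR-451 was in both mixes. Capitals mark the seed, and the 3 seeds shown differ from each other. The labels name the strand of miR-338-3p alone; for miR-210 and miR-33a the strand usually meant by the unsuffixed name is shown. The mature strand of miR-338-3p lies at chr17:81125887-81125908 (minus strand of GRCh38.p14), that of miR-210-3p at chr11:568112-568133 (minus strand) and that of miR-33a-5p at chr22:41900949-41900969 (plus strand).
miR-338-3p, in both mixes: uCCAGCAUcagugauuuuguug
miR-210-3p, in the 4-miRNA mix: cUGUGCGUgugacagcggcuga
miR-33a-5p, in the 4-miRNA mix: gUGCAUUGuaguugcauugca

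The deposited signals differed in brightness between the kinds of array. Their trimmed mean was 150 with 4 miRNAs and 147 with 2 miRNAs, against 74.3 in the day 7 control and 76.6 in the day 5 control, so a common trimmed mean of 500 was set on all 4. The highest deposited signal was nevertheless alike on all 4 arrays, between 17832 and 18749. Scaling therefore put the top of the range at 59437 with 4 miRNAs and 63579 with 2 miRNAs, against 120870 in the day 7 control and 122360 in the day 5 control. The 130 named probe sets that reached at least 50% of an array's highest signal were marked as near the top; PGK1 and LDHA are among their genes. The ratio of 3′ to 5′ signal, a sign of RNA quality, ranged from 0.951 to 1.02 for GAPDH and from 1.97 to 2.33 for ACTB. All 8 colonic epithelium markers were at or above the median signal of every array, with a summed scaled signal of 139600 to 179400. Of the markers of other cell types, 2 of 6 for fibroblasts, 2 of 5 for leukocytes, 1 of 4 for endothelium and 0 of 4 for skeletal muscle passed the filter, and each summed signal was between 124 and 640 on every array.

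Differences below are log2 values of scaled signal plus 32, with the comparison array subtracted. A gene is represented by its brightest probe set. The only error the arrays give is the disagreement between a pair of probe sets of the same gene, taken over 2625 genes: its SD for 1 probe set was 0.58 for either mix against the day 5 control, 0.18 for the 4-miRNA against the 2-miRNA array and 0.27 for the day 7 against the day 5 control. Against the day 7 control it was 0.51 with 4 miRNAs and 0.52 with 2 miRNAs. It leaves out everything that differs between cultures. Signals of different probe sets are not comparable levels, so values are compared along the arrays and not between genes.

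**Figure D1:**
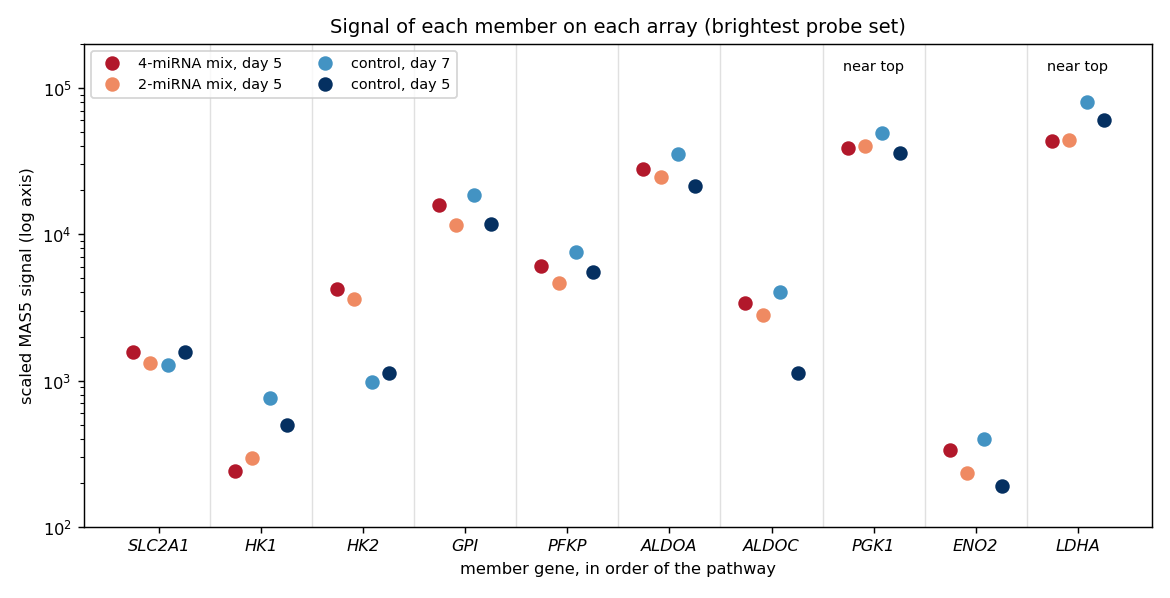
Scaled MAS5 signal (log axis) of the brightest probe set of each member on each of the 4 arrays, 1 point per array and no error bars because no group had a replicate. HK2 stood at 4205 and 3611 on the 4-miRNA and 2-miRNA arrays against 982 and 1120 on the controls, ALDOC was lowest in the day 5 control, and the probe sets of PGK1 and LDHA were near the top of the range.

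SLC2A1, the carrier of glucose across the basal membrane of many epithelia and the usual route of entry in tumour cells, varied little. Its brightest probe set (201250_s_at) read 1572 with 4 miRNAs, 1313 with 2 miRNAs, 1284 in the day 7 control and 1555 in the day 5 control. The 4-miRNA array and the day 5 control gave nearly the same value (0.01), and the day 7 control was 0.27 lower than the day 5 control on the log2 scale (-0.27). SLC2A1 and HK2 were the only members lower on day 7. In bulk cultures fewer cells of a kind and less RNA per cell cannot be told apart. The other probe set (201249_at) was below the array median on 3 of the 4 arrays, with 152 with 4 miRNAs, 54.8 with 2 miRNAs, 75.6 in the day 7 control and 94.3 in the day 5 control.

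HK1 and HK2, the hexokinases that phosphorylate glucose on entry, went opposite ways with the miRNA mixes. HK2, the inducible isoform bound to mitochondria in many tumours, read 4205 with 4 miRNAs and 3611 with 2 miRNAs, against 982 in the day 7 control and 1120 in the day 5 control. Both mixes stood clear of both controls, by 1.88 (4-miRNA, 3.68-fold) and 1.66 (2-miRNA, 3.16-fold) against the day 5 control. Against the day 7 control the differences were 2.06 and 1.84. HK2 was the largest of the members in these 4 comparisons, at percentile 98.5 and 97.3 of all expressed genes against the day 5 control. This rests on 1 probe set (202934_at), because the other probe sets annotated to HK2 were dim and differed in sign. Probe set 222305_at read 90.4 with 4 miRNAs, 92.6 with 2 miRNAs, 46.4 in the day 7 control and 245 in the day 5 control. Probe set 239410_at read 78.0 with 4 miRNAs, 106 with 2 miRNAs, 168 in the day 7 control and 213 in the day 5 control. Both were lower with either mix than in the day 5 control (-1.18 and -1.15 for 222305_at, -1.15 and -0.82 for 239410_at, in the order 4-miRNA, 2-miRNA). Taking the median of the differences within the 3 probe sets, a choice made after seeing the data, turned HK2 to -1.15 (4 miRNAs) and -0.82 (2 miRNAs) against the day 5 control. That median stayed above 0 against the day 7 control, at 0.64 and 0.67, with 2 of the 3 probe sets higher.

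HK1, the constitutive isoform, was measured by a single probe set (200697_at) of modest signal. It read 240 with 4 miRNAs and 296 with 2 miRNAs, against 763 in the day 7 control and 497 in the day 5 control. Both mixes were below both controls. The difference was -0.96 (4-miRNA) and -0.69 (2-miRNA) against the day 5 control. Both were past the probe set SD of 0.58, with 2 miRNAs only just. Against the day 7 control it was -1.55 and -1.28, the largest negative differences among the members, at percentile 0.815 and 1.72 of all expressed genes. In the controls HK1 was 0.59 higher on day 7.

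GPI, which turns glucose-6-phosphate into fructose-6-phosphate, and PFKP, the platelet-type phosphofructokinase of the rate-setting step, had the same order of arrays. GPI (208308_s_at) read 15960 with 4 miRNAs, 11520 with 2 miRNAs, 18550 in the day 7 control and 11800 in the day 5 control. The day 7 control was highest, the 4-miRNA array next, and the 2-miRNA array lay beside the day 5 control (-0.03). PFKP (201037_at) read 6032 with 4 miRNAs, 4649 with 2 miRNAs, 7596 in the day 7 control and 5562 in the day 5 control. The 4-miRNA array exceeded the 2-miRNA array by 0.47 for GPI and 0.37 for PFKP, past the probe set SD of 0.18 for that comparison. Day 7 exceeded day 5 by 0.65 and 0.45. The other PFKP probe set (240202_x_at) read 66.0 with 4 miRNAs, 130 with 2 miRNAs, 116 in the day 7 control and 40.7 in the day 5 control, below the array median on 2 of the 4 arrays.

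The aldolases, which split fructose-1,6-bisphosphate, were higher on day 7 than on day 5 on all of their probe sets. ALDOC, the brain-type isoform that is also hypoxia-responsive in other cells, read 3403 with 4 miRNAs and 2794 with 2 miRNAs, and 4056 in the day 7 control against 1122 in the day 5 control. The day 5 control stood apart from the other 3 arrays. ALDOC was 3.54-fold higher on day 7 (1.82, percentile 99.5 of all expressed genes), 2.98-fold higher with 4 miRNAs (1.57) and 2.45-fold higher with 2 miRNAs (1.29), each against the day 5 control. These 3 differences share that 1 array. It has 1 probe set (202022_at), so no other probe set could be set beside it.

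ALDOA, the main isoform of most tissues, has 3 probe sets whose probes may also match related sequences, as the suffix _x_at marks. The brightest (214687_x_at) read 27760 with 4 miRNAs, 24770 with 2 miRNAs, 35350 in the day 7 control and 21280 in the day 5 control. On day 7 the probe sets gave 0.73, 0.71 and 0.86. Against the day 5 control the 2 bright probe sets gave 0.38 and 0.48 with 4 miRNAs and 0.22 and 0.49 with 2 miRNAs. The dimmer one (238996_x_at) gave 1.72 and 1.49, from 4762 with 4 miRNAs and 4055 with 2 miRNAs against 1423 in the day 5 control. All 3 agreed in sign against the day 5 control, but a difference of 2-fold or more rests on the dimmer probe set. Against the day 7 control the probe sets disagreed. The 2 bright ones gave -0.35 and -0.24 with 4 miRNAs and -0.51 and -0.22 with 2 miRNAs, while 238996_x_at gave 0.86 and 0.63.

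PGK1, the first ATP-making step, has 6 probe sets and gives the closest look at signal level. Its brightest (200738_s_at), near the top of the range, read 38650 with 4 miRNAs, 39980 with 2 miRNAs, 49440 in the day 7 control and 35940 in the day 5 control. The day 5 control was lowest, and the mixes exceeded it by 0.10 (4-miRNA) and 0.15 (2-miRNA). The less bright probe sets gave more: 217356_s_at gave 0.48 and 0.52, 200737_at gave 0.86 and 0.89, and 227068_at gave 1.09 and 1.03. The dim probe sets 1558365_at and 217383_at gave 0.66 and 1.02, and 0.37 and 0.48. Thus all 6 probe sets were above 0 for both mixes, between 0.10 and 1.09 for the 4-miRNA array. In the controls 5 of the 6 were higher on day 7, between 0.10 and 0.61, and the dim 217383_at was lower (-0.67). The near-top probe set was lower with the mixes than in the day 7 control (-0.35 and -0.31), while the other 5 were all higher, by 0.15 to 1.04 with 4 miRNAs and 0.19 to 1.15 with 2 miRNAs.

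ENO2, the neuron-type enolase, was highest in the day 7 control and lowest in the day 5 control. It read 333 with 4 miRNAs, 233 with 2 miRNAs, 400 in the day 7 control and 191 in the day 5 control (201313_at). Day 7 exceeded day 5 by 0.95 (1.93-fold). The 4-miRNA array exceeded the day 5 control by 0.71, past the probe set SD of 0.58, and the 2-miRNA array by 0.24, which is within it.

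LDHA, which makes lactate, was near the top of the range on its single probe set. As deposited, LDHA (200650_s_at) read 13060 with 4 miRNAs, 12930 with 2 miRNAs, 11940 in the day 7 control and 9198 in the day 5 control. After scaling these became 43530, 43880, 80340 and 60030 in that order. The direction thus turns with the scaling. The deposited signal was 1.42-fold the day 5 control with 4 miRNAs and 1.41-fold with 2 miRNAs, while the scaled differences were -0.46 and -0.45. Such a turn follows from bringing arrays of unlike brightness to a common trimmed mean and is not particular to the top of the range. PFKP with 2 miRNAs, far below the top, had a deposited ratio of 1.61 and a scaled difference of -0.26. Over all 130 marked probe sets the median scaled difference was -0.61 with 4 miRNAs and -0.57 with 2 miRNAs, and 88.5% of them were below 0 with either mix. With quantile normalization of the 4 arrays the LDHA differences from the day 5 control were 0.20 and 0.14. The scaled LDHA differences from the day 7 control were -0.88 and -0.87. They were -0.38 and -0.37 after centring by signal level, inside the probe set SD, and -0.016 and -0.083 after quantile normalization, and the deposited ratios were 1.09 and 1.08. Less LDHA messenger RNA and a bounded signal on the brighter arrays cannot be told apart here. Between the controls, which are of like brightness, LDHA was 0.42 higher on day 7.

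**Figure D2:**
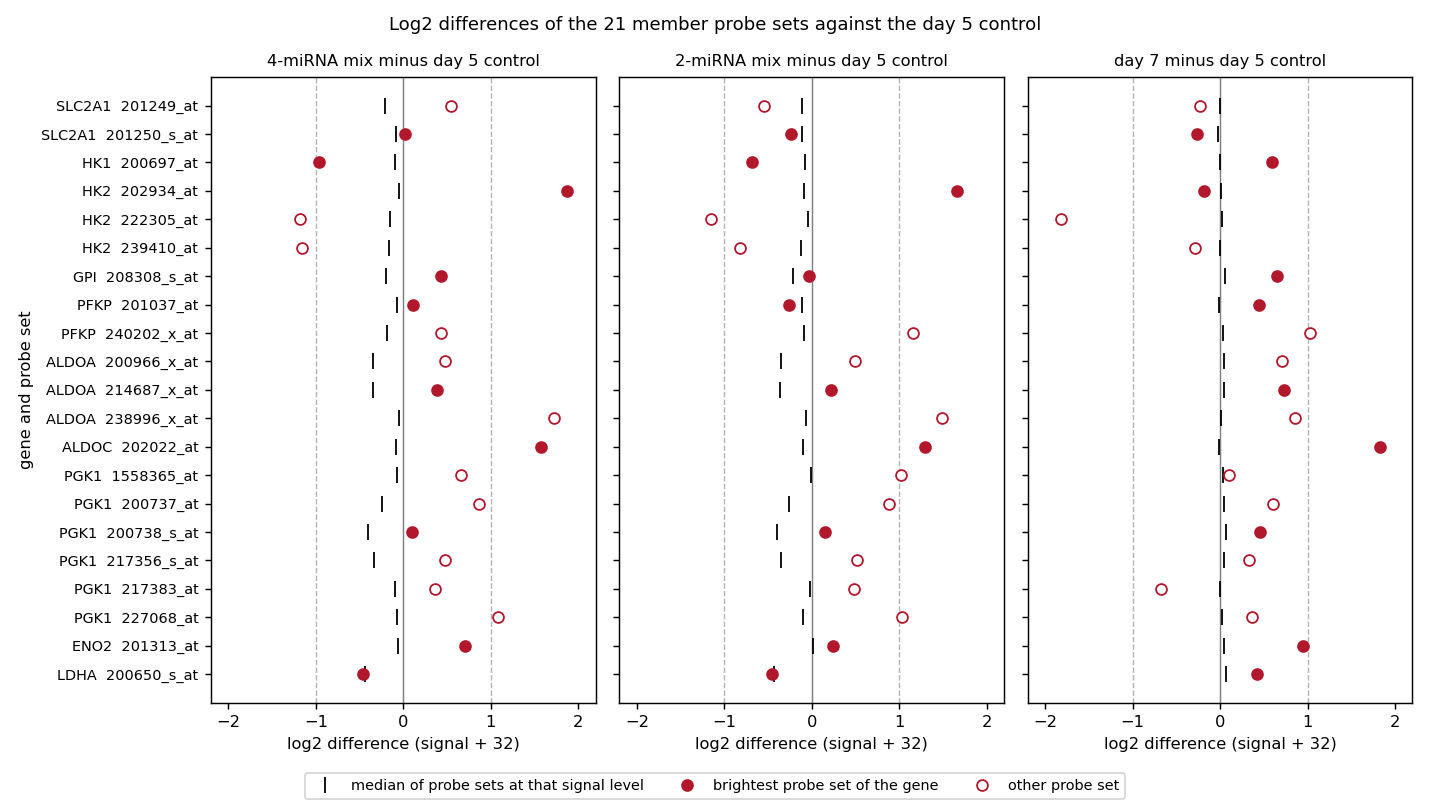
Log2 difference of each of the 21 member probe sets in 3 comparisons that share the day 5 control, with filled points for the brightest probe set of a gene, open points for its others, and a vertical tick for the running median of all probe sets at that signal level; dashed lines mark 2-fold. The tick lies at -0.43 for LDHA with 4 miRNAs and at 0.07 between the controls.

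Taken by comparison, the day 7 control against the day 5 control compares cultures of different age on the filter. Of the 10 members 8 were higher on day 7, with a median of 0.52 against -0.01 over all expressed genes. Those 8 were HK1, GPI, PFKP, ALDOA, ALDOC, PGK1, ENO2 and LDHA, and each was past the probe set SD of 0.27; SLC2A1 was past it on the lower side. Over all expressed genes 49.3% were above 0, 25.0% were higher by more than that SD and 24.9% were lower by more than it. At least 2-fold higher was 1 member, ALDOC, where 3.35% of all genes were, while 0 were lower by 2-fold or more, where 2.41% were. The day 7 control gave the highest scaled signal of the 4 arrays for 8 members, of which PGK1 and LDHA were ranked on probe sets near the top of the range. As deposited, on mix arrays that were brighter throughout, only HK1 of these 8 was highest on day 7. GPI, PFKP, ALDOA, ALDOC, ENO2 and LDHA were then highest with 4 miRNAs and PGK1 with 2 miRNAs. After scaling, 5 of the 6 PGK1 probe sets were higher with both mixes than on day 7. The day 5 control gave the lowest signal for 4 members (ALDOA, ALDOC, PGK1 and ENO2).

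The 4-miRNA array against the day 5 control had 8 members above 0 as well, where 41.0% of all genes were, and a median of 0.25 against -0.15 over all genes. HK2 and ALDOC were at least 2-fold higher, where 8.03% of all genes were, while 0 were lower by 2-fold or more, where 6.7% were. HK2, ALDOC and ENO2 were higher by more than the probe set SD (16.8% of all genes) and HK1 was lower by more than it (22.7%). With each array centred by the running median at its signal level, the members' median was 0.57.

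The 2-miRNA array against the day 5 control was evenly divided. Here 5 members were above 0, where 40.6% of all genes were, with a median of 0.06 against -0.16 over all genes. HK2 and ALDOC were again the members at least 2-fold higher (8.11% of all genes) and the members higher by more than the probe set SD (16.4%). None of the 10 was at least 2-fold lower (6.37% of all genes), and HK1 was lower by more than the SD (23.0%).

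The 4-miRNA array against the 2-miRNA array shows what went with adding miR-210 and miR-33a, which cannot be told apart from less of the shared miRNAs if 15 pmol was the total. Members higher with 4 miRNAs numbered 7, where 50.8% of all genes were above 0, with a median of 0.24 against 0.00 over all genes. Past the probe set SD of 0.18 were SLC2A1 (0.25), HK2 (0.22), GPI (0.47), PFKP (0.37), ALDOC (0.28) and ENO2 (0.46), where 25.9% of all genes were, and HK1 on the lower side (-0.27), where 24.5% were. None was 2-fold apart, where 1.04% of all genes were that much higher and 1.33% that much lower. With the median of the differences within probe sets the members' median was 0.076, with 5 above 0. The bright PGK1 and LDHA differed by -0.05 and -0.01.

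Against the day 7 control the mixes also differed in the day of collection. With 4 miRNAs 2 members were above 0 (SLC2A1 and HK2), where 39.1% of all genes were, with a median of -0.29 against -0.15 over all genes. With 2 miRNAs the same count was 2, where 38.9% of all genes were above 0, and the median was -0.61 against -0.16. PGK1 counts as below 0 in both through its near-top probe set alone. For ALDOA the 2 bright probe sets were below 0 in both, and the dimmer 238996_x_at was above 0 in both. HK2 was at least 2-fold higher in both (5.63% of all genes with 4 miRNAs and 6.19% with 2) and HK1 at least 2-fold lower in both (4.15% and 4.03%). Past the probe set SD with 4 miRNAs were HK2 on the higher side (15.1% of all genes) and HK1 and LDHA on the lower side (21.6%), with the call on LDHA lost after centring or quantile normalization. With 2 miRNAs these were HK2 (15.4%) and, on the lower side, HK1, GPI, PFKP, ALDOC, ENO2 and LDHA (23.1%), where LDHA was again lost under both. Centring by signal level moved the split with 4 miRNAs to 5 members above 0 and 5 below, with a median of -0.055, and with 2 miRNAs to 3 above, with a median of -0.40; 46.9% and 45.5% of all genes were then above 0. The share of members below 0 against the day 7 control thus moves with the scaling.

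**Figure D3:**
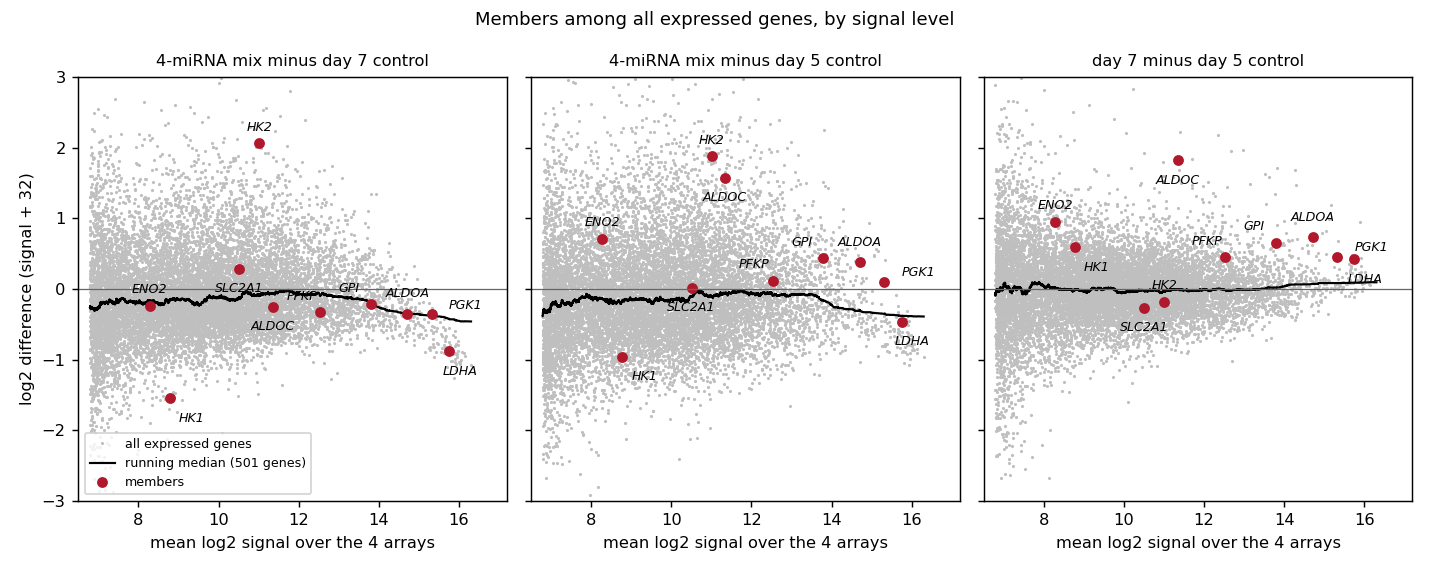
Log2 difference of every expressed gene (grey) and of the members (red) against mean log2 signal over the 4 arrays, with their running median (black); points beyond 3 on either side are not drawn. In the panels of the 4-miRNA array the black line lies mostly below 0, at low signal as well, and bends further down at high signal, where ALDOA, PGK1 and LDHA lie. Between the controls the black line stays near 0.

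Of 20 further glycolysis enzymes and glucose carriers 14 were expressed. Between the controls 10 of these 14 were above 0 on day 7 with a median of 0.23, and none was at least 2-fold higher. Over all expressed genes 49.3% were above 0 there, with a median of -0.01, and 3.35% were at least 2-fold higher. The enzymes named whatever their values were PGAM1 (0.50), PKM (0.40), TPI1 (0.30), GAPDH (0.24) and ENO1 (0.14); all 5 were higher on day 7. With 4 miRNAs against the day 5 control the list had 5 of 14 above 0 and a median of -0.14, and with 2 miRNAs 5 of 14 and -0.09. Over all expressed genes 41.0% were above 0 with 4 miRNAs, with a median of -0.15, and 40.6% with 2 miRNAs, with a median of -0.16. SLC2A3, a high-affinity glucose carrier, was at least 2-fold higher with both mixes. It read 605 with 4 miRNAs and 529 with 2 miRNAs, against 148 in the day 7 control and 164 in the day 5 control, a difference of 1.70 and 1.52 from the day 5 control. Its other probe sets, each below the array median on 1 array, gave 0.56 and 2.14 with 4 miRNAs and 1.18 and 2.28 with 2 miRNAs. ENO3, the muscle enolase, was at least 2-fold lower on all 3 other arrays than in the day 5 control (125 with 4 miRNAs, 126 with 2 miRNAs and 127.6 in the day 7 control against 295). These 3 ENO3 differences share that 1 array and rest on 1 dim probe set (204483_at). Its deposited ratios to the day 5 control were 0.83 with 4 miRNAs and 0.82 with 2 miRNAs.

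GAPDH, the triose phosphate dehydrogenase, turned direction with the scaling on some of its probe sets. All 6 of its probe sets were near the top of the range, and as deposited the brightest read 14150 with 4 miRNAs, 14620 with 2 miRNAs, 14580 in the day 7 control and 12690 in the day 5 control. The scaled differences of that probe set were -0.81 and -0.74 for the mixes against the day 5 control, and its deposited ratios 1.12 and 1.15. Probe sets 212581_x_at (0.815 and 0.852) and 217398_x_at (0.879 and 0.901) had deposited ratios below 1 as well and did not turn. As with LDHA, a turn by scaling is not particular to the top of the range. ENO1, bright but below the mark, stood at -0.34 and -0.25, and TPI1 at -0.14 and -0.16 on the probe set that stands for it. The other TPI1 probe sets were higher with the mixes, at 0.62 and 0.60 on one of like signal and at 0.97 and 1.25 on a dimmer one. PKM, which makes pyruvate, was at 0.13 and -0.03.

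Among the 9 expressed genes that control the flow through glycolysis PFKFB3, PFKFB4, PDK1, PDK2 and TIGAR were 2-fold apart in some comparison. PDK1, which restrains pyruvate oxidation, read 3108 with 4 miRNAs and 3249 with 2 miRNAs, against 1334 in the day 7 control and 572 in the day 5 control. It was above the day 5 control by 2.38, 2.44 and 1.18 in that order on its brightest probe set. The other PDK1 probe sets gave 0.27 and 0.03 with 4 miRNAs and 0.66 and 1.03 with 2 miRNAs. PFKFB3, which makes the activator of phosphofructokinase, read 1368 and 1239 with 4 and 2 miRNAs, against 359 in the day 7 control and 355 in the day 5 control. Like HK2 and SLC2A3, PFKFB3 was higher with both mixes (1.85 and 1.71) and nearly equal in the controls (0.01). PFKFB4, of the same family, was instead 1.30 higher on day 7, 1.27 higher with 4 miRNAs and 0.55 higher with 2 miRNAs. Its other probe set (206246_at), below the array median in the day 5 control, gave 1.90, 1.67 and 1.47 in that order. PDK2 was 1.13 higher on day 7 on its brightest probe set and 0.23 higher on its other one. TIGAR, which breaks down the sugar phosphate that PFKFB3 makes, was 1.07 lower with 4 miRNAs (-1.07).

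The list of lactate and proton export held 5 genes, of which SLC16A1 and SLC16A3 had no probe set annotated to them alone. Of the 3 expressed genes, SLC16A4 was higher with both mixes (1.62 and 1.73) on its single probe set. SLC16A7, under the median of the day 5 control, was at least 1.44-fold and 1.43-fold higher on its brightest probe set (207057_at). Its other expressed probe set (210807_s_at) gave 0.08 and 0.95. BSG, the chaperone of lactate carriers, was at -0.22 and -0.32. None of the 7 genes of pyruvate entry into mitochondria and none of the 6 expressed pentose phosphate genes was 2-fold apart from the day 5 control. TALDO1, which shuttles sugars between the pathways, differed by -1.005 with 2 miRNAs against the day 7 control. In gluconeogenesis G6PC3 (-1.01) and PC (-1.08) were lower with 2 miRNAs than in the day 5 control, and PC, a dim probe set, was 1.13 higher with 4 than with 2 miRNAs. In glycogen handling GBE1, the branching enzyme, was higher with 4 miRNAs (2.03), with 2 miRNAs (1.72) and on day 7 (1.23), and GYS1 was lower with 2 miRNAs (-1.05). HIF targets outside glycolysis were above 0 for all 11 expressed genes in each of these 3 comparisons, with medians of 1.51 (4 miRNAs), 1.29 (2 miRNAs) and 1.34 (day 7), against 0.25, 0.06 and 0.52 for the 10 members. Over all expressed genes 41.0%, 40.6% and 49.3% were above 0, in the same order. All 3 comparisons share the 1 array of the day 5 control. The 11 genes were EGLN1, EGLN3, NDRG1, ANKRD37, DDIT4, BNIP3, BNIP3L, ADM, VEGFA, P4HA1 and KDM3A. EGLN3, an oxygen sensor that marks HIF for destruction, gave 2.74 with 4 miRNAs, 2.24 with 2 miRNAs and 2.21 on day 7 (1.30, 1.15 and 1.06 on its other probe set), and VEGFA, the vessel growth factor, gave 1.73, 1.57 and 0.96 on its brightest probe set. The other 3 expressed VEGFA probe sets gave -0.14 to 0.47 with 4 miRNAs and -0.15 to 0.39 with 2 miRNAs. Against the day 7 control the medians of the list were 0.17 with 4 miRNAs and 0.03 with 2 miRNAs.

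**Figure D4:**
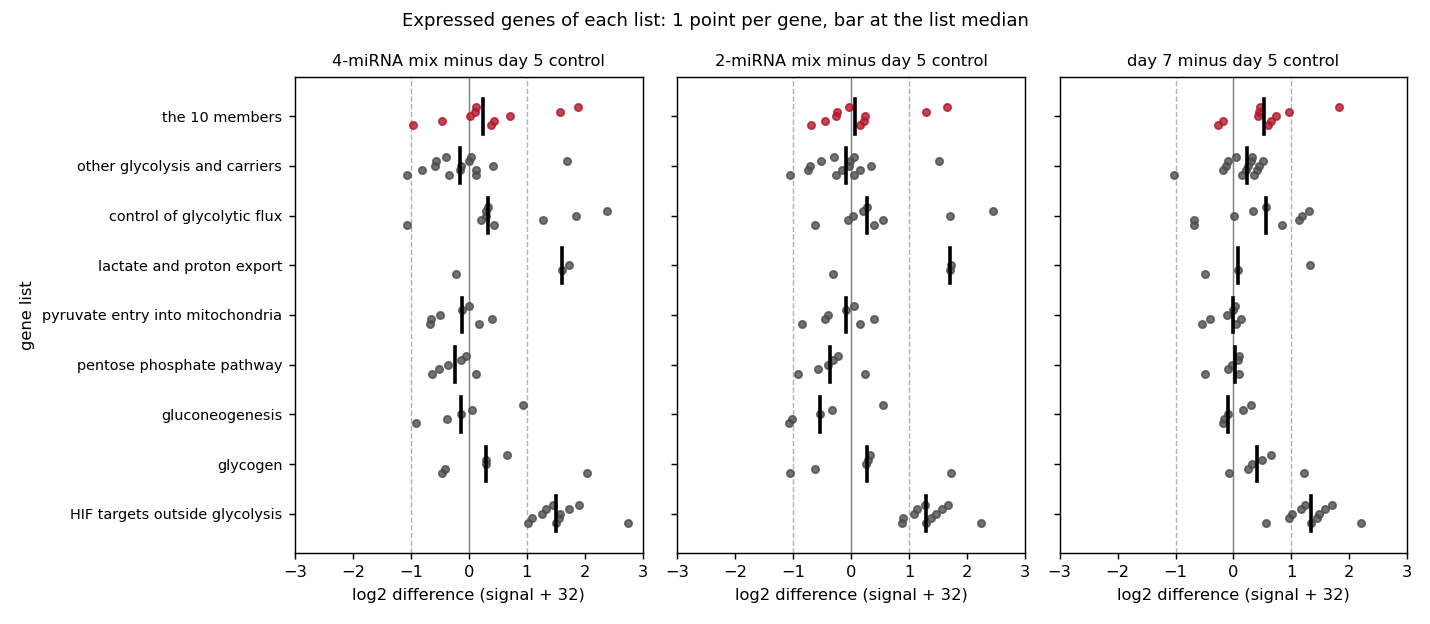
Log2 difference of the expressed genes of each list (1 point per gene, red for the 10 members, bar at the list median) in 3 comparisons that share the day 5 control; dashed lines mark 2-fold. The HIF targets outside glycolysis lie right of 0 in every panel; the members' median is 0.25 with 4 miRNAs, 0.06 with 2 miRNAs and 0.52 between the controls.

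The promoters of members were read because several of them were high together on day 7 and HIF binds a short core. The letters ACGTG and GCGTG were searched on both strands in the RefSeq windows of GRCh38.p14 that run from 250 bases before to 50 bases after each start. A match on the other strand reads CACGT or CACGC, and CACGTG holds a match on each strand. All 10 members had a window (23 windows in all, since genes with several starts have several). ACGTG was in 11 of the 23 windows and GCGTG in 10, where 21.4% and 36.5% of all 35116 windows hold them. Counted by gene, 10 of 10 members had either core in some window, against 52.4% of 27305 genes. The 10 members have 23 windows and the 27305 genes 35116, and more windows give more chances of a match; the matches are a description, not binding sites.

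The windows of HK2, ALDOC and LDHA are printed because HK2 and ALDOC were the members at least 2-fold higher with the mixes and LDHA had the most ACGTG matches of any member window. LDHA had 5 with each CACGTG counted on both strands. Capitals mark the cores. HK2 has windows at chr2:74833877-74834176 and chr2:74834920-74835219 (plus strand), ALDOC at chr17:28576846-28577145 (minus strand) and LDHA, at its upstream start, at chr11:18394313-18394612 (plus strand), all in GRCh38.p14.
HK2, upstream start: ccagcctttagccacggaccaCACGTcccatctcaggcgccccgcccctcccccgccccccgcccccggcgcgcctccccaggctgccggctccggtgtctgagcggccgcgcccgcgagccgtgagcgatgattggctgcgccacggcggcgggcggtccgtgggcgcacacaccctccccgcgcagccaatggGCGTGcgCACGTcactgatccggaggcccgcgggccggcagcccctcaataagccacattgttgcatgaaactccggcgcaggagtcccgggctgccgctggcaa
HK2, downstream start: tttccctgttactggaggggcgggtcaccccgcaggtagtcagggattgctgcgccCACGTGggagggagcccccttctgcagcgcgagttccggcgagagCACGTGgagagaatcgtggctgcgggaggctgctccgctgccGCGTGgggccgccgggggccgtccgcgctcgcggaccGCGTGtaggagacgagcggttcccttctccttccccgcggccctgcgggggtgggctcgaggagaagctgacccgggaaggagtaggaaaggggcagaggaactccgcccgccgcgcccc
ALDOC: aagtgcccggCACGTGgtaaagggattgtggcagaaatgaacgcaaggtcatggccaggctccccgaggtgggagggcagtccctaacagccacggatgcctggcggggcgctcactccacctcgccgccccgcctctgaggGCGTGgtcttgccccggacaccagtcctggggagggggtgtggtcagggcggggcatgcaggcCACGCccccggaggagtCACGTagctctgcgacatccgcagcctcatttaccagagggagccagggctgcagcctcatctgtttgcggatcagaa
LDHA: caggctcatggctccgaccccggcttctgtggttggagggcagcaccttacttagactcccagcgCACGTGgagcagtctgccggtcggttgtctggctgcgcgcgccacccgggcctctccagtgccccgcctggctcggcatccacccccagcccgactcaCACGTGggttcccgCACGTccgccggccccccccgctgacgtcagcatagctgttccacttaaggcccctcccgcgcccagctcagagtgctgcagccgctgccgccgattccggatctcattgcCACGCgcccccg
The HK2 windows held 2 and 4 ACGTG matches, the ALDOC window 3, and the PGK1 window, not printed, 3, none of them in a CACGTG. The SLC2A1 window had 0 ACGTG matches and 1 GCGTG match. The 7 HK1 windows had 0 ACGTG matches, and 2 of them held GCGTG. GPI, PFKP, ALDOA and ENO2 each held ACGTG in some window. Whether the matches bear on the differences was not tested.

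The genes whose pattern over the 4 arrays was closest to the median of the members, by Euclidean distance of centred log2 values, were ACAN (0.05), SLC36A1 and DENND5A (both 0.08), A1CF (0.08) and SPINT2 (0.08). The members themselves lay between 0.13 (ALDOA) and 2.07 (HK2) from that median, and 1869 of the 12193 other expressed genes lay closer to it than the median member, which was at 0.45. HK2, ALDOC and HK1 (1.06) were the members farthest from it.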

How the data were processed

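The deposited table holds a linear intensity for each of 54675 probe sets on 4 arrays, with none negative. MAS5 made the deposited intensity values, per the submitters' processing notes. For its version and target level, not given in the sources used here, nothing was assumed. Values had not been brought to 1 level, so factors of 3.33 (4 miRNAs), 3.39 (2 miRNAs), 6.73 (day 7) and 6.53 (day 5) were applied that gave every array a mean of 500, leaving out 2% of its probe sets at each end. Differences are of log2(signal + 32), which makes those of dim genes too small. The supplied platform annotation named genes (41097 probe sets with 1 symbol, 1801 with several and 11777 with none; the last 2 kinds were left out), updated by gene ID from RefSeq for 41043. A probe set counted as expressed at or above the median of mean log2 signal, or at the 75th percentile of any array, and a gene was represented by its expressed probe set of highest mean. The running median ran over 1001 probe sets ordered by mean log2 signal. Probe set SD was taken from the 2 brightest probe sets of genes with a pair at mean log2 of 9 or more. No replicate existed, so the number of arrays limits the precision and p-values were not computed. The members, the 9 lists and the rules were chosen with earlier results of these data known. Named genes were all members, other list genes differing 2-fold or more in some comparison, GAPDH, TPI1, ENO1, PKM and PGAM1 always, and the 5 nearest profiles. BSG, PDHA1, RPE and TKT were added after their values were seen. The scaling, the differences and the probe set SD were tested on simulated data. Alternatives covered scaling, pseudocount, filter, probe set choice and probe set kind. Python 3.11.15, pandas 2.3.3 and numpy 2.4.6 were used.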

Additional observations from a re-analysis of the deposited data

How the results depend on the processing

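The 10 members were recomputed under 9 alternatives and 1 added after seeing the data, the median of the differences within probe sets. Of 594 single-gene values, 558 moved by less than the probe set SD, 30 moved by more and 6 turned direction, all of them HK2. The added setting gave HK2 -1.15 (4 miRNAs) and -0.82 (2 miRNAs) against the day 5 control, and did not turn it against day 7. The planned median of signals over probe sets gave -1.18 and -0.9995 against day 5 and -0.71 and -0.53 against day 7. The values -0.9995 and -0.71 set different HK2 probe sets against each other, so they are not read as a change. The value -1.18 is the difference within the dim probe set 222305_at, and -0.53 is that within the dim 239410_at. Both settings moved the members' median to 0.62 for day 7 against day 5, and left 1 member at least 2-fold apart (2 as reported) for 2 miRNAs against day 5 and for each mix against day 7. For 4 against 2 miRNAs the median was 0.055 with the planned and 0.076 with the added setting, and the added one gave -0.41 for 2 miRNAs against day 7. Quantile normalization gave medians of 0.53 (4 miRNAs against day 5), -0.044 (4 miRNAs against day 7) and -0.36 (2 miRNAs against day 7), and centring by signal level gave 0.57, -0.055 and -0.40. Centring moved the median of all genes by just over 0.1, to -0.04 for 4 miRNAs against day 5. For 4 miRNAs against day 7 the members above 0 numbered 2 as reported, 4 after quantile normalization and 5 after centring. A pseudocount of 8 put 2 members at least 2-fold apart between the controls (1 as reported). Leaving out probe sets near the top gave 0.43 for 4 miRNAs against day 5, over 9 members. Leaving out shared probe sets gave 0.49 there and put 1 member 2-fold apart between the mixes (0 as reported). The cause of these moves was not tested. No paired analysis was possible because each group had 1 array. Array brightness and the miRNA mixes coincide and cannot be told apart, signals near the top of the range limit LDHA, PGK1 and GAPDH, and dim probe sets limit HK1 and ENO2.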
